A study of Mus musculus with 6 samples.

Results

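The genes described here bind, carry or store zinc and iron: the metallothioneins Mt1, Mt2 and Mt3, the zinc carriers Slc30a1 and Slc39a14, and the iron genes Tfrc, Trf, Slc40a1, Fth1 and Ftl1. They were taken by name, as all gene probes that the scanner files give under these 10 symbols. That gave 13 of 39429 probes on the array and all 10 genes, of 26134 genes or names tested. All 13 probes passed the filter on dim signal, and each was above background by the scanner software's call on every array, in Cy3 and in Cy5. Male C57BL/6 mice of 8 weeks had phosphate-buffered saline (PBS) or titanium dioxide nanoparticles injected into the vitreous, the gel of the eye, on the right side. The nanoparticle dose is named PTC in the labels, with no further explanation there, and the higher dose, 10PTC, was 10 times as large. Groups were of 12 mice, retinas were collected after 7 days, and each RNA pool held 4 retinas. Each of the 6 two-colour arrays compared a nanoparticle pool in Cy5 with PBS control RNA in Cy3, with 3 arrays per dose and no dye swap.

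Values are log2 of nanoparticle over PBS, averaged over 3 arrays and given with their SD, and intervals are at 95%. A gene was called where the adjusted p of a limma model over all 6 arrays, taken over all genes tested, was below 0.05. No array has the dyes the other way round, so an effect of the dyes cannot be told apart from treatment in any comparison with PBS. The sources used here leave unsaid if the PBS RNA was 1 pool or several, and with 1 pool the control's own spread would not be in the test. Slide 1 carried PTC replicates 1 and 2 and slide 2 the other 4 arrays. All 10PTC arrays are thus on slide 2. A fit with slide as a block shifts their values by part of the slide difference seen in the PTC arrays. That difference rests on 1 PTC array on slide 2, so dose and slide cannot be fully separated. Pairs of arrays correlated with r of 0.619 to 0.878 over genes. No spot was saturated, and outlier spots numbered 185 to 274 per array. The treated RNA held less signal of skeletal muscle (10 of 10 marker genes lower at each dose), fat (5 of 6 at each) and red blood cells (5 of 5 at PTC, 4 of 5 at 10PTC) than the control. All 10 rod markers were measured, and 3 of them were higher at each dose, with none lower.

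Metallothioneins are small proteins rich in cysteine that hold zinc and copper. In most tissues Mt1 and Mt2 are switched on together, by zinc through the metal sensor Mtf1, by glucocorticoids, and by cytokines of the interleukin-6 family through Stat3, and in the retina Muller glia are known to make them. Mt3 is the form of neurons and other brain cells and answers little to metals. Iron enters cells as transferrin (Trf) bound to its receptor (Tfrc), is stored in ferritin shells of heavy (Fth1) and light (Ftl1) chains, and leaves through ferroportin (Slc40a1). When iron is scarce in a cell, the iron regulatory proteins Aco1 and Ireb2 protect Tfrc mRNA from decay and hold back the translation of ferritin and ferroportin mRNA.

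The 3 metallothionein genes lie in a row on chromosome 8, and their starts in RefSeq (GRCm38.p6) are 20011 bases apart for Mt3 and Mt2 and 6471 bases apart for Mt2 and Mt1. The sequences shown are the 250 bases before the RefSeq start of the metallothionein genes and of Slc30a1, the zinc exporter known to answer to the same metal sensor, because Mt1, Mt2 and Slc30a1 were higher at both doses and Mt3 was lower. Capitals mark the core of the metal response element, TGCACNC or TGCGCNC, on either strand. RefSeq gave such a sequence for 7 of the 10 genes.
Mt1 (chr8:94178839-94179088, plus strand): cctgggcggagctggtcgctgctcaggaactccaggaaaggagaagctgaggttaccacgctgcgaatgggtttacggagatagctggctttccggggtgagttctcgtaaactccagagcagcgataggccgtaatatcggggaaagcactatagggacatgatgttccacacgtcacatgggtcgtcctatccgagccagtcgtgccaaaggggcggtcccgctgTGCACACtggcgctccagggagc
Mt2 (chr8:94172368-94172617, plus strand): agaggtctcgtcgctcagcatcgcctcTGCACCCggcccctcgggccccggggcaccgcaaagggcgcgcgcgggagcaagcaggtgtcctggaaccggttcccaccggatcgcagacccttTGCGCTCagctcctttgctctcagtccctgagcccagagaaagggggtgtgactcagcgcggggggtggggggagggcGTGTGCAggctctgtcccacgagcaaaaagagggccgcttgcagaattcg
Mt3 (chr8:94152357-94152606, plus strand): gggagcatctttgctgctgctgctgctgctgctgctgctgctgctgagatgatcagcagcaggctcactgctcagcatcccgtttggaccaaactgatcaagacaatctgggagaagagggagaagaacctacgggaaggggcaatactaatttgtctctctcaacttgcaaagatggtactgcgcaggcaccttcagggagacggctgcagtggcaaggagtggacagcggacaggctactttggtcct
Slc30a1 (chr1:191906531-191906780, plus strand): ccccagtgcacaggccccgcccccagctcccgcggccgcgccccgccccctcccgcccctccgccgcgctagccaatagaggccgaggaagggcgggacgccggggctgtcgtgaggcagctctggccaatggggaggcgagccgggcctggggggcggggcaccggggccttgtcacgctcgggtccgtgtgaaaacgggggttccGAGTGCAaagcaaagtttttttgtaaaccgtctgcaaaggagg
The core occurred 3 times before Mt2, 1 time before Mt1, 1 time before Slc30a1 and not before Mt3. Among the genes whose sequence is not shown, it occurred 2 times, overlapping, before 1 of 2 starts of Tfrc, which was not called higher. It did not occur before either start of Fth1, which like Mt1, Mt2 and Slc30a1 was called higher at both doses. Nor did it occur before Ftl1, which was higher at PTC. Of 32851 RefSeq promoters of that length, 21.4% held the core at least 1 time and 1.26% at least 3 times. The window depends on where RefSeq places the start, which was not checked against the start used in the retina. For Mt1 the window may lie upstream of the start used in most cells, so elements of its promoter can be missed. In the 50 bases after the RefSeq start, not shown, the core occurred 2 times for Mt1 and 1 time each for Mt2, Mt3 and Slc30a1. Of all promoters, 5.72% held any there and 0.53% at least 2. The antioxidant response core TGANNNNGC, on either strand and free to overlap the first motif, occurred before Mt2 (1 time), Mt3 (2 times) and Slc30a1 (2 times) and not before Mt1, and 35.2% of promoters held it. The palindrome TTCNNNGAA, bound by Stat factors, occurred in none of the 4 sequences and in 7.02% of promoters. These matches describe letters only.

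At the lower dose, the question being which retinal genes differ from PBS after it, most of the metal genes were higher. Of the 10 genes, 9 were called, 7 higher and 2 lower, where 33.1% of all genes tested were called, 16.9% higher and 16.3% lower. Their median was 0.43, against -0.001 for all genes. At 10PTC, 5 of 10 were called, 4 higher and 1 lower, where 27.7% of all genes were called, 14.4% higher and 13.3% lower, and the median was 0.22 against 0. In order of size at PTC the means ran from Mt2 (0.98), Trf (0.92), Mt1 (0.79), Ftl1 (0.61), Slc40a1 (0.52), Fth1 (0.33) and Slc30a1 (0.29) to Tfrc (-0.13), Slc39a14 (-0.19) and Mt3 (-0.30). For each pair of neighbours in this order except Slc30a1 and Tfrc, the mean of at least one lay within the interval of the other. Both doses were set against PBS, so that what they share may come from the control.

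**Figure D1:**
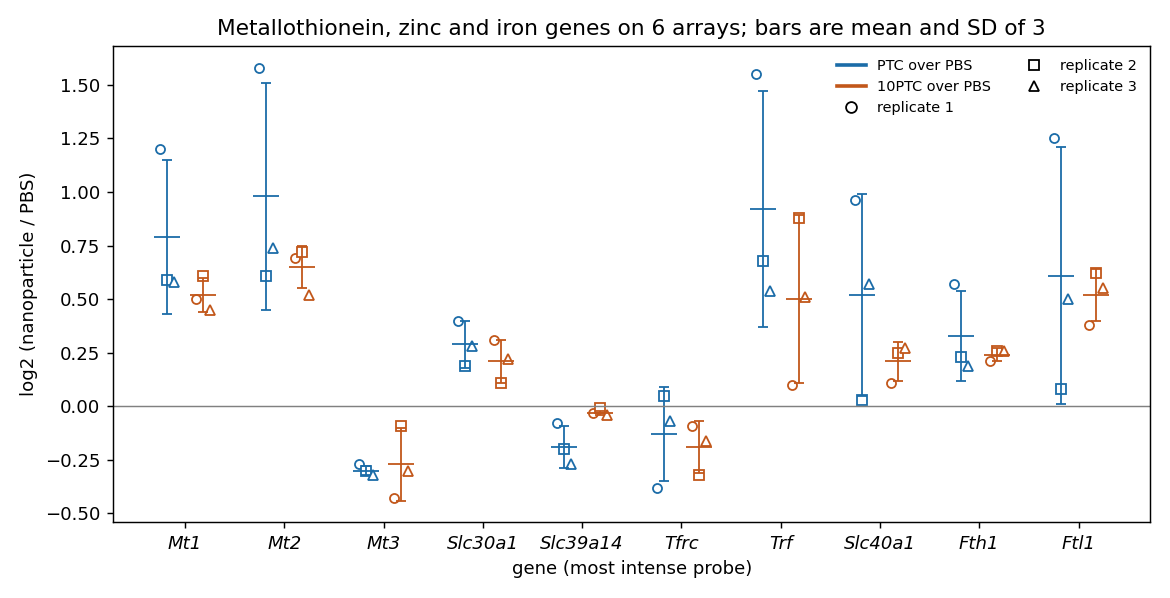
Log2 of nanoparticle over PBS for the 10 genes by their most intense probe, with a point per array (circle, square and triangle for replicates 1, 2 and 3), a bar at the mean of 3 arrays and whiskers of 1 SD, for PTC in blue and 10PTC in orange. Mt1, Mt2, Slc30a1, Trf, Slc40a1, Fth1 and Ftl1 lie above 0 on all 6 arrays, Mt3 and Slc39a14 lie below 0 on all 6, and PTC replicate 1 is the highest point for 7 genes.

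Mt1 and Mt2 were higher on every array. Mt1, a metallothionein of most cell types (probe at chr8:96704165-96704224, plus strand, mm9), measured 1.20, 0.59 and 0.58 on PTC replicates 1, 2 and 3 and 0.50, 0.61 and 0.45 on 10PTC replicates 1, 2 and 3. PTC replicate 1 stood apart, and the other 5 arrays lay within a narrow band in which the doses overlapped. The mean at PTC was 0.79 ± 0.36 (SD, n = 3), a 1.73-fold difference (interval 0.52 to 1.06, limma adjusted p = 0.00356), and at 10PTC 0.52 ± 0.08 (SD, n = 3), or 1.44-fold (0.25 to 0.79, limma adjusted p = 0.0173). Mt2, its close relative and neighbour (chr8:96697371-96697430, plus strand), gave 1.58, 0.61 and 0.74 at PTC and 0.69, 0.72 and 0.52 at 10PTC. Again PTC replicate 1 was the highest array and 10PTC replicate 3 the lowest. Mt2 rose by 0.98 ± 0.53 (SD, n = 3) at PTC, or 1.97-fold (0.59 to 1.37, limma adjusted p = 0.00564), and by 0.65 ± 0.10 (SD, n = 3) at 10PTC, or 1.56-fold (0.26 to 1.03, limma adjusted p = 0.0274). The probes of Mt1 and Mt2 are distinct sequences, whose longest shared run is 7 bases. Neither probe was compared with the other gene's transcript, so signal from the relative was not checked.

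Without PTC replicate 1 the PTC values were 0.58 for Mt1 (limma adjusted p = 0.00183) and 0.68 for Mt2 (0.00185). At 10PTC the calls needed all 3 arrays: without any 1 of them Mt1 lay between 0.48 and 0.56 (limma adjusted p from 0.0778 to 0.0949) and Mt2 between 0.61 and 0.71 (0.0983 to 0.137). With slide as a block the 10PTC estimates were 0.68 for Mt1 (limma adjusted p = 0.0698) and 0.83 for Mt2 (0.0994). These are shifted by the slide difference of the PTC arrays and lie above every 10PTC array measured. Within slide 2 the 10PTC values were 0.52 and 0.65.

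Mt3, first known as a factor of the brain that restrains nerve cell growth (chr8:96677927-96677986, plus strand), went the other way. It measured -0.27, -0.30 and -0.32 on PTC replicates 1, 2 and 3 and -0.43, -0.09 and -0.30 on those of 10PTC. The PTC arrays differed by little, and they lay inside the wider range of 10PTC. The mean was -0.30 ± 0.02 (SD, n = 3) at PTC, a fall to 0.814 of the control (-0.45 to -0.15, limma adjusted p = 0.0124), and -0.27 ± 0.17 (SD, n = 3) at 10PTC, to 0.829 (-0.42 to -0.12, limma adjusted p = 0.0206). When arrays were centred on their median in place of loess, which follows signal strength, Mt3 was no longer called (-0.12, limma adjusted p = 0.101, and -0.05, 0.453). The call was also lost without PTC replicate 3 at PTC (-0.29, limma adjusted p = 0.0606) and without 10PTC replicate 1 (-0.19, 0.13) or 3 (-0.26, 0.118) at 10PTC.

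The genes whose 6 values came closest to those of Mt1, among 20266 genes that were above background in Cy3 and Cy5 on every array, were Cd9, a membrane organizer (root mean square difference 0.068), Lamp2, a lysosomal membrane protein (0.096), the transcript ENSMUST00000107229 (0.096), the G protein subunit gene Gna14 (0.106) and Sulf1, a sulfatase of the cell surface (0.11). Cd9 measured 1.13, 0.57 and 0.57 at PTC and 0.52, 0.54 and 0.58 at 10PTC. For Mt2 they were Apobec1, an RNA editing enzyme (0.126), Myo1g, a myosin of blood cells (0.129), Fcrls, known from microglia (0.139), A730062M13Rik (0.142) and the cytokine receptor chain Csf2rb2 (0.154). Fcrls, for example, gave 1.64, 0.55 and 0.88 at PTC and 0.68, 0.65 and 0.82 at 10PTC. Mt2 itself ranked 71 in likeness to Mt1, at 0.193, its ratio being the larger on 6 of 6 arrays.

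The zinc carriers moved less than Mt1 and Mt2. Slc30a1, which exports zinc through the outer membrane (chr1:193736760-193736819, plus strand, mm9), measured 0.40, 0.19 and 0.28 on the PTC arrays and 0.31, 0.11 and 0.22 on the 10PTC arrays. Every array was above 0 and the doses overlapped. It rose by 0.29 ± 0.11 (SD, n = 3) at PTC, or 1.22-fold (0.16 to 0.43, limma adjusted p = 0.00942), and by 0.21 ± 0.10 (SD, n = 3) at 10PTC, or 1.16-fold (0.08 to 0.35, limma adjusted p = 0.0316). At 10PTC the call was lost without PTC replicate 3 (0.21, limma adjusted p = 0.0548) and without 10PTC replicate 1 (0.17, 0.189) or 3 (0.21, 0.146), and with slide as a block (0.22, 0.183).

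Slc39a14 (chr14:70703394-70703453, minus strand) imports zinc and iron that is not bound to transferrin. Its values were -0.08, -0.20 and -0.27 on PTC replicates 1, 2 and 3 and -0.03, -0.01 and -0.04 on the 10PTC arrays. All were below 0, and each 10PTC array lay above each PTC array. The mean was -0.19 ± 0.10 (SD, n = 3) at PTC, a fall to 0.879 of the control (-0.30 to -0.07, limma adjusted p = 0.0227), and -0.03 ± 0.01 (SD, n = 3) at 10PTC, which was not called (-0.14 to 0.08, limma adjusted p = 0.701). The direction depended on the scaling: under median centring the values were -0.02 at PTC (limma adjusted p = 0.796) and 0.17 at 10PTC (0.0286). The PTC call was lost without PTC replicate 2 (-0.18, limma adjusted p = 0.068) or 3 (-0.14, 0.121).

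Of the genes that bring iron to the cell, the carrier was higher at PTC. The receptor's most intense probe was not called at either dose, and its other 2 probes were called lower at both. Transferrin, which the retina makes itself, was measured by 2 probes. The more intense, at chr9:103111207-103111266 on the minus strand (mm9), gave 1.55, 0.68 and 0.54 on PTC replicates 1, 2 and 3 and 0.10, 0.88 and 0.51 on 10PTC replicates 1, 2 and 3. The highest array was PTC replicate 1 and the lowest 10PTC replicate 1, so that arrays of 1 dose differed more than the doses did. Trf rose by 0.92 ± 0.55 (SD, n = 3) at PTC, or 1.89-fold (0.44 to 1.40, limma adjusted p = 0.0141), and was at 0.50 ± 0.39 (SD, n = 3) at 10PTC, which was not called (0.02 to 0.98, limma adjusted p = 0.109). The second probe, at chr9:103112826-103112885 on the same strand, returned nearly the same values on every array: 1.52, 0.62 and 0.54 at PTC and 0.11, 0.90 and 0.55 at 10PTC. Its sequence is shown because it repeats the spread between arrays in other letters of the transcript.
Trf, second probe: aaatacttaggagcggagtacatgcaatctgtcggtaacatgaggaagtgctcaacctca
Without PTC replicate 1 the PTC value fell to 0.61 (limma adjusted p = 0.0312), while the 10PTC value, again 0.50, passed (0.0222). Without 10PTC replicate 2 the 10PTC value was 0.31 (limma adjusted p = 0.404).

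The transferrin receptor gene Tfrc had 3 probes. The most intense, at chr16:32632255-32632314 (mm9) and present 10 times per array, measured -0.38, 0.05 and -0.07 on PTC replicates 1, 2 and 3 and -0.09, -0.32 and -0.16 on the 10PTC arrays. Its 10 spots agreed to an SD of 0.028 to 0.051 on each array, so that the arrays differed by more than the spots. Each array held 1 nanoparticle pool, so pool, labelling and array cannot be told apart. With -0.13 ± 0.22 (SD, n = 3) at PTC and -0.19 ± 0.12 (SD, n = 3) at 10PTC it was not called (limma adjusted p = 0.264 and 0.137). The other 2 probes lie nearer the start of the gene, at chr16:32624877-32625093, where its 60 bases are spread over 217, and chr16:32620470-32620529, all on the plus strand. The sequences are shown because the answer for Tfrc depended on the probe.
Tfrc, A_51_P167876: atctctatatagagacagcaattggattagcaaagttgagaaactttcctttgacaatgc
Tfrc, A_65_P06446: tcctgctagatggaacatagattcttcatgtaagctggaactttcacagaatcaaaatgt
In a fit of all 32490 probes, the first of these gave -0.26, -0.13 and -0.20 at PTC and -0.11, -0.29 and -0.11 at 10PTC, with means of -0.20 ± 0.07 (SD, n = 3, limma adjusted p = 0.0262) and -0.17 ± 0.10 (SD, n = 3, 0.0475). This first probe was dim, with signals of 96.9 to 108 in Cy3 and 94.4 to 118 in Cy5. Both ranges lie below the median gene spot of every array. The second of them gave -0.76, -0.42 and -0.55 at PTC and -0.97, -0.60 and -0.68 at 10PTC. In Cy3, the PBS channel, it was brighter than the probe taken for the gene on every array (884 to 1040 against 772 to 891). In Cy5 it was dimmer on every array. Intensity was averaged over both channels, so the choice of probe rested in part on the treated RNA. This second probe is described further here. It was below 0 on all arrays, and its means of -0.58 ± 0.17 (SD, n = 3, limma adjusted p = 0.00347) and -0.75 ± 0.19 (SD, n = 3, 0.00217) were the lowest of the 13 probes at both doses. With the probes of a gene averaged, Tfrc was called lower at both doses, at -0.30 (limma adjusted p = 0.00987) and -0.37 (0.00698). In that setting 10 of the 10 genes were called at PTC and 6 at 10PTC. Under median centring the most intense probe was at 0.04 (limma adjusted p = 0.746) and 0.02 (0.879), so its direction was not settled. The sources used here do not give the exon or transcript form that each probe reads.

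**Figure D2:**
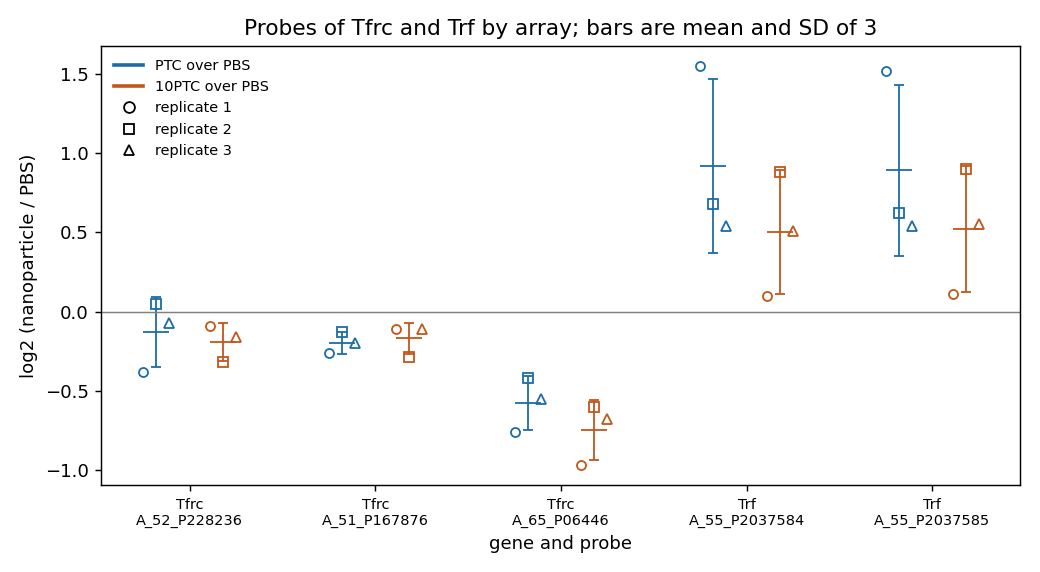
Log2 of nanoparticle over PBS for the 3 probes of Tfrc and the 2 of Trf, with a point per array (circle, square and triangle for replicates 1, 2 and 3), the mean of 3 arrays and whiskers of 1 SD. The Trf probes repeat each other array by array, whereas the Tfrc probes have PTC means of -0.13, -0.20 and -0.58.

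Ferroportin and the ferritin chains, the exit and the store of iron, were higher at PTC. Slc40a1, the known iron exporter of animal cells (chr1:45965255-45965314, minus strand, mm9), measured 0.96, 0.03 and 0.57 on the PTC arrays and 0.11, 0.25 and 0.27 on the 10PTC arrays. The PTC arrays spread from near 0 to nearly 1 and enclosed all 10PTC values. The PTC mean of 0.52 ± 0.47 (SD, n = 3), or 1.44-fold, was called (0.18 to 0.87, limma adjusted p = 0.032), and the 10PTC mean of 0.21 ± 0.09 (SD, n = 3) was not (-0.14 to 0.55, limma adjusted p = 0.321). The PTC call was lost without PTC replicate 1 (0.30, limma adjusted p = 0.0991) or 3 (0.50, 0.119), without any 1 of the 10PTC arrays (0.52, 0.0522 to 0.0562) and with slide as a block (0.53, 0.0658).

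Fth1, the ferritin chain that oxidizes iron (chr19:10059485-10059544, plus strand), gave 0.57, 0.23 and 0.19 at PTC and 0.21, 0.26 and 0.26 at 10PTC. PTC replicate 1 was the highest, and the other 5 arrays lay close together. Fth1 rose by 0.33 ± 0.21 (SD, n = 3) at PTC, or 1.26-fold (0.15 to 0.50, limma adjusted p = 0.0147), and by 0.24 ± 0.03 (SD, n = 3) at 10PTC, or 1.18-fold (0.07 to 0.42, limma adjusted p = 0.0468). Without PTC replicate 1 the PTC value was 0.21 (limma adjusted p = 0.0245). The 10PTC call was lost without PTC replicate 3 (0.24, limma adjusted p = 0.0529), without any 1 of its own arrays (0.23 to 0.26, 0.146 to 0.184) and with slide as a block (0.35, 0.0997).

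Ftl1, the light chain that helps the iron core form (chr7:52713309-52713368, minus strand), measured 1.25, 0.08 and 0.50 at PTC and 0.38, 0.62 and 0.55 at 10PTC. All arrays were above 0, and those of PTC spanned those of 10PTC. It rose by 0.61 ± 0.60 (SD, n = 3) at PTC, or 1.53-fold (0.17 to 1.04, limma adjusted p = 0.0413). At 10PTC it stood at 0.52 ± 0.12 (SD, n = 3) without a call (0.08 to 0.95, limma adjusted p = 0.0772). The PTC call was lost without PTC replicate 1 (0.29, limma adjusted p = 0.0809) or 3 (0.67, 0.102), without any 1 of the 10PTC arrays (0.61, 0.0644 to 0.0683) and with slide as a block (0.58, 0.0928), while at 10PTC it passed without PTC replicate 1 (0.52, 0.00431) or 2 (0.52, 0.0326). The array design lists 3 other RefSeq transcripts for the Ftl1 probe, and 2 for that of Slc39a14. Whether these belong to the same gene or to near copies was not checked.

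The slides gave the same directions at PTC. With slide as a block, 7 of the 9 PTC calls were kept, at 0.74 for Mt1 (limma adjusted p = 0.0123), 0.92 for Mt2 (0.0185), -0.30 for Mt3 (0.0332), 0.29 for Slc30a1 (0.0291), -0.21 for Slc39a14 (0.0312), 0.83 for Trf (0.0355) and 0.29 for Fth1 (0.0371). Within slide 1, which holds PTC replicates 1 and 2 alone, none of the 10 genes passed in limma (adjusted p of 0.0856 and above), with Mt1 at 0.89, Mt2 at 1.10, Trf at 1.11 and Ftl1 at 0.67. PTC replicate 3, the only PTC array on slide 2, measured 0.58 for Mt1, 0.74 for Mt2, 0.57 for Slc40a1 and 0.50 for Ftl1. As a single array it gives no spread for PTC within slide 2. Its 10PTC arrays gave calls for Trf (0.50, limma adjusted p = 0.0349), Slc40a1 (0.21, 0.0218), Ftl1 (0.52, 0.00233), Tfrc (-0.19, 0.0449) and the 5 genes called before. With slide as a block no 10PTC call remained among the 10 genes (limma adjusted p from 0.0698 to 0.762), Mt3 being at -0.26 (0.166). That fit shifts the 10PTC values, all from slide 2, by the slide difference of the PTC arrays. The difference between the 10PTC arrays and the single PTC array of slide 2 was -0.06 for Mt1, -0.09 for Mt2, -0.04 for Trf, 0.02 for Ftl1, -0.36 for Slc40a1 and 0.24 for Slc39a14.

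The doses were compared with each other in the same model, which asks whether a dose 10 times as large changed the response. None of the 10 genes was called, and neither was any of 26134 genes (0%) in limma, although 2130 genes, and 1 of the 10, had an unadjusted p below 0.05. The smallest adjusted p over all genes was 0.228. For 10PTC minus PTC the difference was -0.27 for Mt1 (interval -0.65 to 0.12), -0.33 for Mt2 (-0.88 to 0.22), 0.03 for Mt3 (-0.19 to 0.24) and -0.08 for Slc30a1 (-0.27 to 0.11). It was -0.42 for Trf (-1.10 to 0.26), -0.31 for Slc40a1 (-0.80 to 0.17), -0.09 for Fth1 (-0.33 to 0.16), -0.09 for Ftl1 (-0.71 to 0.52) and -0.06 for Tfrc (-0.33 to 0.22). The intervals were widest for Trf and Ftl1, and that of Mt3 ended short of the size of its responses to either dose. The gene of the 10 below that unadjusted threshold was Slc39a14, at 0.16 (0 to 0.32, limma adjusted p = 0.611), which was also the only one of the 10 whose doses did not overlap, where 15.5% of all genes had doses that did not overlap.

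PTC replicate 1 gave the highest of the 6 values for 7 of the 10 genes, and 7 of the 9 genes called at PTC had their largest size there, as did 55.9% of the 8656 genes called at PTC in all. The median over the 10 genes was 0.77, 0.13 and 0.39 on PTC replicates 1, 2 and 3 and 0.16, 0.26 and 0.26 on the 10PTC arrays. The marker medians of microglia, Muller glia, pigment epithelium and red blood cells were also highest on that array. Those of oligodendrocytes, skeletal muscle, fat and rods were not. The red blood cell median was -0.47 there and -1.72 to -1.12 on the other arrays. The rod median was lowest there, at -0.20 against 0.11 to 0.34 on the others. For 14 genes of microglia and macrophages the medians were 1.52, 0.60 and 1.11 at PTC and 0.82, 0.81 and 1.01 at 10PTC, and 12 of the 14 were called higher at each dose, among them Ctss (1.94 ± 0.59 and 1.68 ± 0.17, SD, n = 3), a lysosomal protease, and Cx3cr1 (1.34 ± 0.47 and 1.07 ± 0.11), a chemokine receptor. For 11 genes of Muller glia they were 0.68, 0.28 and 0.31 and 0.38, 0.42 and 0.49, with 6 called higher and 2 lower at each dose. The 2 lower, outside the rule and named after their values were seen, were Glul (-0.64 and -0.61) and Car14 (-0.21 and -0.31). Gfap, the filament of reactive glia, had the largest rise of the list, by 1.61 ± 0.62 and 1.44 ± 0.12 (SD, n = 3). The other Gfap probes gave 1.80 and 1.83, and 0.10 and 0.25, and a second Cx3cr1 probe gave 0.61 and 0.62. The pigment epithelium, which makes transferrin, had medians of 0.50, 0.23 and 0.24 and 0.03, 0.29 and 0.09 over 10 genes, 5 of them higher at PTC and 3 higher and 1 lower at 10PTC. Oligodendrocytes, another source of transferrin, had 1 of 7 markers higher and 1 lower at PTC and 1 higher at 10PTC, with medians of -0.07, 0.16 and -0.04 on the PTC arrays and 0.02, -0.03 and -0.07 on the 10PTC arrays. In retinal pools a change in the number of cells of a type cannot be told apart from a change in RNA per cell. The part of these cell types in the values of the metal genes was not tested.

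**Figure D3:**
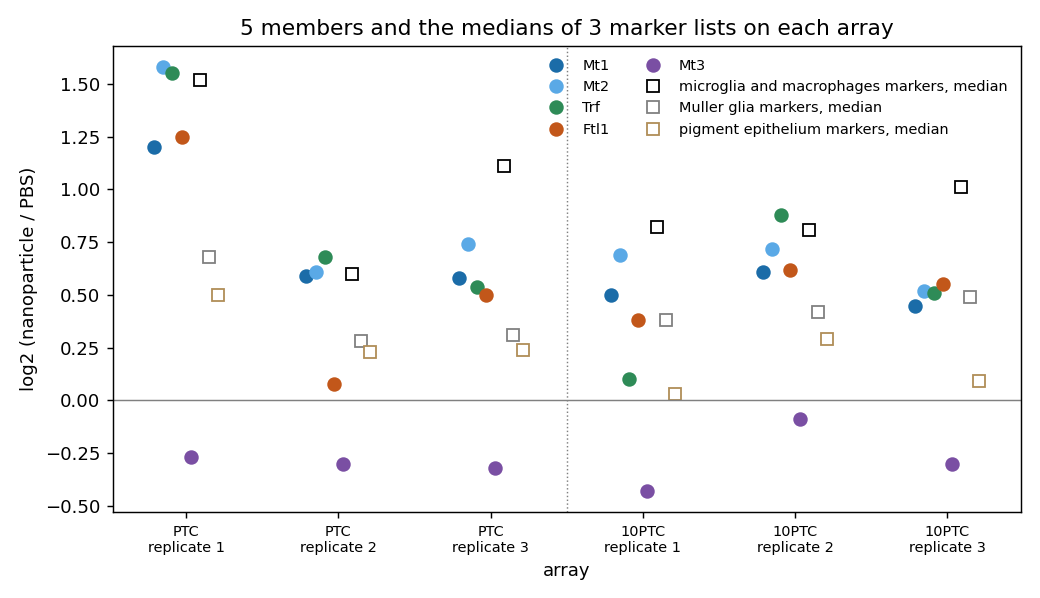
Log2 of nanoparticle over PBS on each of the 6 arrays for Mt1, Mt2, Mt3, Trf and Ftl1 (filled circles) and for the medians of the marker genes of microglia and macrophages, Muller glia and pigment epithelium (open squares), with a dotted line between the doses. PTC replicate 1 carries the highest values of Mt1, Mt2, Trf and Ftl1 and of all 3 marker medians, while Mt3 is at -0.27 there.

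Other genes of these pathways were described by lists, whose counts stand beside the 33.1% of all genes called at PTC (16.9% higher, 16.3% lower) and the 27.7% at 10PTC (14.4% higher, 13.3% lower). The zinc list had 23 measured genes: zinc transporters, the sensor Mtf1 and the metallothionein Mt4. Of these, 7 were higher and 3 lower at PTC (median 0.05). At 10PTC, 3 were higher and 3 lower (median 0.03), close to the share over all genes. Slc30a5, which loads zinc into the secretory pathway, rose by 0.30 ± 0.06 (SD, n = 3, limma adjusted p = 0.0075) at PTC and 0.21 ± 0.12 (0.0291) at 10PTC. Its partner of the same compartment, Slc30a7, rose by 0.21 ± 0.04 at PTC (limma adjusted p = 0.0105), was at 0.13 at 10PTC (0.0576, not called), and had 0.06 at both doses at a second probe. The zinc importer Slc39a3 fell by 0.27 at PTC (limma adjusted p = 0.00725), and so did Slc30a10, a manganese exporter, by 0.22 (0.0104), which at 10PTC stood at 0.06. Mtf1 was at -0.06 and 0.02 and Mt4 at 0.05 and -0.11, and neither was called.

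Among 20 other genes of iron uptake, export and storage, 8 were higher and 5 lower at PTC and 6 higher and 5 lower at 10PTC, with a median of 0 at both. The largest increase among those named by rule was in ceruloplasmin (Cp), the copper oxidase that loads exported iron onto transferrin, with 2.23, 1.03 and 1.42 on the PTC arrays and 1.83, 1.79 and 1.41 on the 10PTC arrays. That gave 1.56 ± 0.61 (SD, n = 3, limma adjusted p = 0.00234) and 1.67 ± 0.23 (0.00263), or 2.95-fold and 3.19-fold, and a second Cp probe gave 0.73 and 0.65. Slc25a37, which carries iron into mitochondria, rose by 0.78 ± 0.47 and 0.99 ± 0.01 (SD, n = 3, limma adjusted p = 0.00769 and 0.00484), with 0.20 and 0.37 at its second probe. Ncoa4, the receptor that sends ferritin to the lysosome, rose by 0.39 ± 0.05 and 0.25 ± 0.10 (limma adjusted p = 0.00254 and 0.0129). Mcoln1, a lysosomal channel that releases iron, fell by 0.38 and by 0.48 (limma adjusted p = 0.00217 and 0.00144). Outside the rule and chosen after their values were seen, Lcn2, which binds bacterial iron carriers, rose by 1.69 and 1.96 (limma adjusted p = 0.00871 and 0.00701) and the phagosome transporter Slc11a1 by 0.90 and 0.80 (0.00938 and 0.0173).

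Of 13 genes that sense or regulate iron, 4 were higher and 2 lower at PTC and 3 higher and 1 lower at 10PTC. Bmp6, the signal that adjusts the hormone hepcidin to iron stores, varied little between arrays of a dose. It gave 0.59, 0.58 and 0.58 at PTC and 0.48, 0.44 and 0.44 at 10PTC. Its means of 0.58 ± 0.01 and 0.45 ± 0.02 (SD, n = 3) passed (limma adjusted p = 0.000391 and 0.0013). The 2 iron regulatory proteins differed: Ireb2 rose by 0.38 ± 0.15 and 0.44 ± 0.09 (SD, n = 3, limma adjusted p = 0.00581 and 0.00489), whereas Aco1, named after its value was seen, was at -0.29 (0.0141) and -0.14 (0.131). Smad4, which relays Bmp signals, rose by 0.26 ± 0.05 and 0.23 ± 0.01 (SD, n = 3, limma adjusted p = 0.00468 and 0.00844), with 0.05 and 0.26 at its second probe. Hjv, the Bmp co-receptor hemojuvelin, fell by 0.26 and 0.18 (limma adjusted p = 0.00701 and 0.0319).

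Of 12 genes that clear hemoglobin and heme, 2 were lower at each dose, with medians of -0.06 and -0.10. Haptoglobin (Hp), which binds free hemoglobin, fell by 1.69 and 1.47 (limma adjusted p = 0.000345 and 0.000787), beside medians of -1.28 and -1.20 for red blood cell markers and -1.14 and -1.28 for fat markers, whose part in the fall was not tested. The heme carrier Slc46a1 fell by 0.27 and 0.26 (limma adjusted p = 0.017 and 0.0245), with -0.20 and -0.13 at its second probe. Hmox2, the constitutive heme oxygenase, was at -0.13 and -0.05, and Abcg2, a heme exporter, at 0.20 and 0.19; neither passed. For iron-sulfur clusters 3 of 17 genes were higher and 2 lower at PTC and 4 higher at 10PTC. Fdxr, which passes electrons to the assembly, fell by 0.24 at PTC (limma adjusted p = 0.00852), and Ciao1, an assembly factor of the cytosol, by 0.14 (0.0292), while Nfs1, which supplies the sulfur, rose by 0.16 at 10PTC (0.0318). For copper 1 of 11 genes was higher and 1 lower at PTC and 1 higher and 2 lower at 10PTC. The copper pump Atp7a rose by 0.22 and 0.24 (limma adjusted p = 0.0204 and 0.0169), Sco2, which delivers copper to cytochrome oxidase, fell by 0.33 and 0.31 (0.00402 and 0.00625), and the pump Atp7b fell by 0.16 at 10PTC (0.0335). Slc31a2, a copper carrier of endosomes, was at -0.01 and 0.25 and not called.

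The signals known to induce Mt1 and Mt2 formed the last list, and 6 of 20 were higher and 2 lower at each dose, with medians of 0.04 and 0.06. The 6 that rose were the same at both doses. Il6, also on the list, was not among the genes tested. The 6 are among 11 measured genes of the interleukin-6 family and its Stat3 arm, a subset of the list that was not set beforehand. The other 5 were not called: Lif stood at 0.13 and 0.16, Il11 at -0.02 and 0.10, Osm at -0.05 and 0.03, Jak1 at 0.03 and 0.02, and Jak2 at 0.02 and -0.01. Osmr, the receptor chain for oncostatin M, measured 1.90, 0.81 and 1.02 at PTC and 1.19, 1.24 and 1.05 at 10PTC, with means of 1.24 ± 0.58 and 1.16 ± 0.10 (SD, n = 3, limma adjusted p = 0.00343 and 0.0056). Il6st, the chain shared by the family, rose by 0.50 ± 0.22 and 0.56 ± 0.03 (SD, n = 3, limma adjusted p = 0.00409 and 0.00402). The remaining genes that rose, outside the rule and named after their values were seen, were the cytokine Cntf (0.78 and 0.68), the receptor Lifr (0.25 and 0.38), Stat3 itself (0.52 and 0.64) and its feedback inhibitor Socs3 (1.12 and 1.26), with limma adjusted p between 0.00579 and 0.0188. The 2 that fell were Tsc22d3, by 0.55 and 0.53 (limma adjusted p = 0.00211 and 0.00309), and Zbtb16, by 0.31 and 0.37 (0.00642 and 0.00485). Both are known targets of glucocorticoids, but other targets on the list were not called, with Fkbp5 at -0.04 and -0.07, Per1 at -0.08 and -0.08 and Sgk1 at 0.05 and 0.13. The receptors Nr3c1 (0.11 and -0.01) and Nr3c2 (-0.14 and -0.11) were not called either. Median centring raised the count of higher genes in all 7 lists at both doses, to 11 and 15 of 17 for iron-sulfur clusters and to 1 and 2 of 12 for heme. With slide as a block the zinc list kept no call at 10PTC in limma, the iron uptake list 2 higher and 1 lower, the list of inducing signals 1 lower, and the microglia markers 2 higher.

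**Figure D4:**
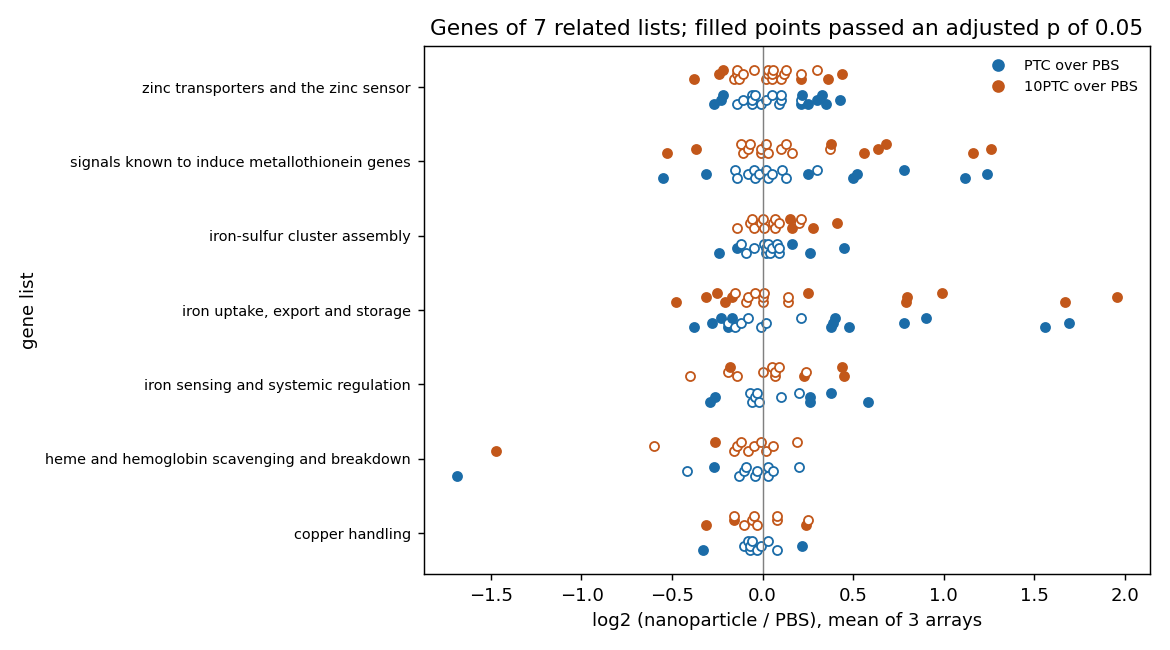
Mean log2 of nanoparticle over PBS over 3 arrays for each measured gene of 7 lists related to metal handling, PTC in blue and 10PTC in orange, with filled points for genes that passed an adjusted p of 0.05 in limma. Most points of each list lie near 0, and the largest shifts are in iron uptake, export and storage (Lcn2 and Cp), in the signals that induce metallothioneins (Osmr and Socs3) and in heme clearance (Hp, lower).

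The calls for the 10 genes depended on processing to different degrees. At PTC, Mt1 and Mt2 were each called in 23 of 24 other settings, Slc30a1 and Trf in 22, Mt3 in 20, Fth1 in 19, Slc39a14 in 17, and Slc40a1 and Ftl1 in 12. At 10PTC, Mt3 was called in 18 of 23 settings, Mt1 in 17, Mt2 and Slc30a1 in 16 and Fth1 in 14. All settings kept the sign of Mt1, Mt2, Mt3, Slc30a1, Trf, Slc40a1, Fth1 and Ftl1 against PBS at both doses.

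**Figure D5:**
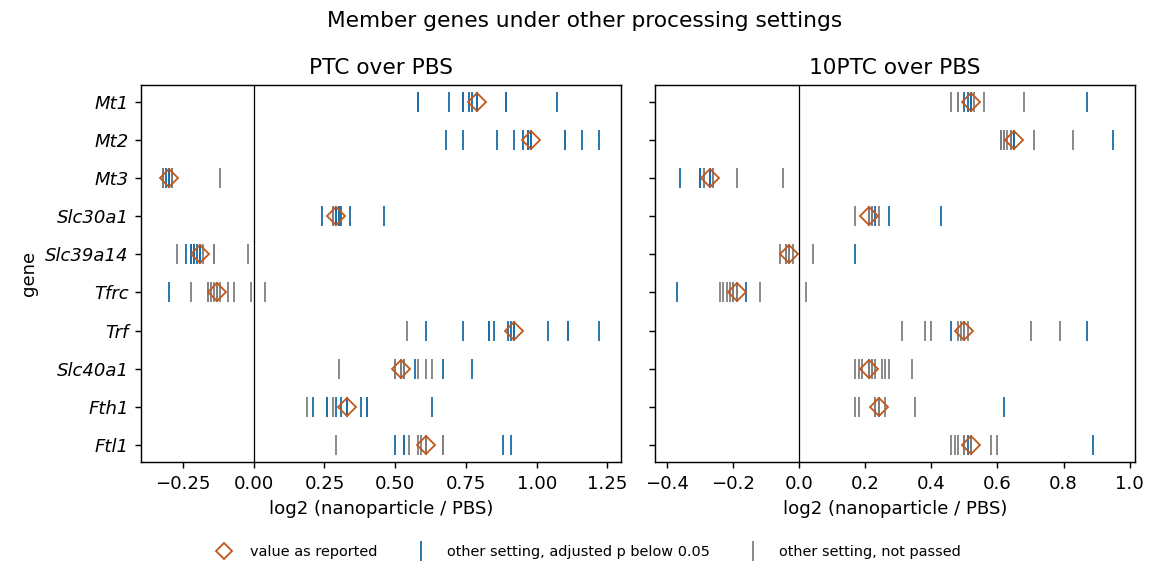
Log2 of nanoparticle over PBS for the 10 genes as reported (diamonds) and under each other processing setting (ticks, blue where the limma adjusted p was below 0.05 and grey where not), PTC on the left and 10PTC on the right. Values of Mt1 at PTC run from 0.58 to 1.07 and are blue in 23 of 24 settings, while ticks of Tfrc and, at 10PTC, Slc39a14 lie on both sides of 0.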

How the data were processed

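Retinal RNA of 3 pools per dose was measured against PBS RNA on 6 Agilent mouse arrays with 60-base probes. The authors deposited spot intensity values in 2 channels with log10 ratios, made with Agilent Feature Extraction 10.7.3.1 per the file headers and 9.3.2.1 per the submitters' processing notes, and a table of log2 ratios whose direction is Cy5 over Cy3 (slope 3.32 and r of 0.983 to 1 against the log10 ratios) and whose centring stays unknown (medians from -0.075 to 0.039). The sources used here do not give whether the control RNA was 1 pool, so p-values measure the spread between these arrays, which holds that between control pools only if there were several.

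In limma 3.58.1 (R 4.3.3, data.table version 1.17.8), mean signals and median backgrounds were corrected with normexp (offset 50) and normalized by loess within arrays, with 1377 control spots at weight 0. Outlier spots were left out, spots of a probe averaged, probes called well above background in Cy3 or Cy5 on 3 or more arrays kept (6939 left out), and the most intense probe taken per gene. Symbols came from RefSeq by accession, symbol or synonym for 26055, 3195 and 930 of 39429 probes, and 9249 kept the name in the file. Signal over background limits the precision: median Cy3 and Cy5 signals were 153 to 221 and 187 to 347 over backgrounds of 26 to 29 and 47 to 48. The model had a coefficient per dose, with 4 residual and 3.41 prior degrees of freedom, and Benjamini-Hochberg adjustment over 26134 genes. The model fit was tested on simulated log2 ratios, and the steps before it were not. The 10 genes and the lists were chosen with earlier results of these data known; named genes are those 10, up to 4 of smallest p per pathway list, up to 2 per marker list, and the 5 closest to Mt1 and to Mt2; 1 gene that the rule names is not reported here. Probe positions are those of the array design (mm9); promoter sequences are RefSeq's, GRCm38.p6. Alternatives to each step, each array left out, slide and replicate blocks and the authors' table were also run.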

Additional observations from a re-analysis of the deposited data

How the results depend on the processing

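At PTC, 9 of the 10 genes and 8656 of all genes were called; fitting the dose alone gave 5 and 4608, slide 1 alone 0 and 289, and slide 2 alone, where PTC replicate 3 is taken to vary as the 10PTC arrays do, 4 and 1714. Leaving out 1 array gave 5 to 8 of the 10 and 5004 to 7862 of all. At 10PTC, against 5 and 7231, the counts were 1 and 4440 with the scanner software's processed signals, 0 and 4579 in the authors' table, 0 and 1009 with slide as a block, 8 and 12261 with array weights, and 0 to 8 and 1359 to 9119 without 1 array. They were 2 and 5317 with offset 0, 9 and 9369 with the dose fitted alone, and 9 and 9370 within slide 2. Median centring called 14634 genes at 10PTC and turned the split to 9646 higher and 4988 lower, from 3762 and 3469, and at PTC to 8203 and 4212, from 4404 and 4252. Between doses, 0 genes were called, 2 with trended and robust moderation and 0 to 1 without 1 array, and none of the 10 in any setting. Direction changed for Tfrc against PBS under median centring (0.04 at PTC, 0.02 at 10PTC) and for Slc39a14 at 10PTC (0.17 under median centring, 0.04 with slide as a block). Between doses it changed for Fth1 and Ftl1 with slide as a block or within slide 2 (0.05 and 0.02) and without PTC replicate 1 (0.04 and 0.23), for Mt3 without 10PTC replicate 2 (-0.07), and for Tfrc without PTC replicate 2 (0.04) or 10PTC replicate 2 (0.01). Without 1 array these differences between doses ran from -0.16 to 0.04 for Fth1, -0.36 to 0.23 for Ftl1, -0.07 to 0.10 for Mt3 and -0.18 to 0.04 for Tfrc. The causes were not tested. With the mean of its dose taken off each array, arrays with the same number correlated with r of -0.272, 0.146 and 0.198. Deviations from means of so few arrays cannot settle if the numbers pair the pools. The replicate block gave 6 of the 10 and 6451 genes at PTC and 4 and 4822 at 10PTC.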
